A study of Mus musculus with 6 samples.

Results

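The 10 genes described here are targets of the transcription factor p53 and regulators of apoptosis: Cdkn1a, Bbc3, Sesn1, Gadd45a, Mdm2, Ccng1, Bax, Pmaip1, Phlda3 and Trp53inp1. They were taken by gene symbol from a table of mouse liver expression, and all 10 had a probe set among the 16331 gene probe sets of that table. RNA from 3 liver samples labelled Ugcg-deficient (arrays 427, 429 and 431) was compared with RNA from 3 liver samples labelled wildtype (arrays 426, 428 and 430), each on an Affymetrix array. Ugcg encodes the glucosyltransferase that makes glucosylceramide, the starting lipid of most glycosphingolipids, and the study asked how its loss bears on liver function. The labels give a genotype and a tissue, and the strain, age, sex, feeding state and the way the deficiency was made are not known here. The genes were chosen with their difference between the genotypes already known, so that difference is given below as a description and was not tested for them.

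The protein p53 is held at a low level in unstressed cells and accumulates after DNA damage and other stresses, when it binds paired decamer sites in DNA and switches on its targets. Some of these targets stop the cell cycle, some repair or protect the cell, some start apoptosis through the mitochondria, and Mdm2 closes a feedback loop by marking p53 for destruction. In liver, where most hepatocytes rest outside the cell cycle, Cdkn1a is also known to respond to fasting, to the circadian clock and to injury, partly through factors other than p53.

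The targeted gene was read in every sample as a check of the labels. Ugcg read 7.12, 6.70 and 6.68 on Ugcg-deficient 427, 429 and 431, against 6.81, 6.85 and 6.87 on wildtype 426, 428 and 430. Ugcg-deficient 427 lay above all wildtype arrays and the other 2 below them, and the means differed by -0.009 (SE 0.12, limma adjusted p = 0.998). Where its probes lie relative to the deleted part is not known here, so the genotype labels are left unchecked by it and every direction rests on them.

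In these samples 9 of the 10 genes had a lower mean on the Ugcg-deficient arrays than on the wildtype arrays, and Pmaip1 was the exception. The median difference, Ugcg-deficient minus wildtype, was -0.14 on the log2 scale over the 10 genes and 0.006 over all probe sets. Cdkn1a had the largest difference of the 10 (-0.59), followed by Bbc3 (-0.36), Gadd45a (-0.29) and Sesn1 (-0.22), and for these 4 every Ugcg-deficient array lay below every wildtype array. Of all probe sets, 4.47% were separated in that direction, 5.1% were separated in the other, and 47.5% had a difference below 0; the choice of the genes used this contrast, so nothing is read from these shares.

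The promoter sequences are shown because p53 acts on its targets through paired decamers in DNA, and 6 of the genes carry at least 1 decamer near a start site. RefSeq promoter windows (build GRCm38.p6, 250 bases before to 50 bases after a gene start) were used for 8 of the 10 genes. These made 12 windows in all. Pmaip1 was left out and Trp53inp1 had no window, so the counts do not cover them. The consensus of a single decamer, which is only a part of a p53 site, reads the same on both strands. This decamer was found in 6 of the 12 windows, against 8.36% of all 32851 windows in the table. A window of Cdkn1a held 2 decamers, and a window each of Gadd45a, Mdm2, Ccng1, Sesn1 and Bax held 1. A stricter pattern, CATGNNNNNNCATG, stands for the cores of a pair of adjoining decamers and also reads the same on both strands. It was found in the upstream Cdkn1a window and in 0.712% of all windows. Capitals mark the decamers and, in Cdkn1a, also that pair, which overlaps its second decamer.
Cdkn1a, chr17:29090729-29091028, + strand: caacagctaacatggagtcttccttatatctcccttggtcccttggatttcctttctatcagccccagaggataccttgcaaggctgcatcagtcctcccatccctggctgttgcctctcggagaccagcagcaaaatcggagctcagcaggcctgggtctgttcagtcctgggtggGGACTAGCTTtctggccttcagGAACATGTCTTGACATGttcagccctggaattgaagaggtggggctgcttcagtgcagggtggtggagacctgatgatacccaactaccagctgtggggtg
Gadd45a, chr6:67037413-67037472, - strand: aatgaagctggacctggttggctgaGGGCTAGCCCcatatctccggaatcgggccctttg
Mdm2, chr10:117710910-117710969, - strand: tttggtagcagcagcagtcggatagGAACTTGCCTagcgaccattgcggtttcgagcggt
Ccng1, chr11:40755437-40755496, - strand: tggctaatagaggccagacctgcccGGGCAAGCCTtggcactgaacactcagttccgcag
Sesn1, chr10:41887241-41887300, + strand: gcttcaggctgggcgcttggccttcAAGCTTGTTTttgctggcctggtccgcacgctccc
Bax, chr7:45467065-45467124, - strand: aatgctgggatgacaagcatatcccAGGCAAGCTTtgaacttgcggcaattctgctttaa
The Cdkn1a window belongs to the upstream of 2 annotated starts, 2790 bases before the other, and its decamers begin 73 and 51 bases before that start. In the other genes the decamer begins 40 (Gadd45a), 186 (Mdm2), 185 (Ccng1), 173 (Sesn1, the second of 2 windows) and 201 bases (Bax) before the start. The 3 windows of Bbc3 and the window of Phlda3 held neither pattern. A match is a description of letters in these windows, and binding was not measured.

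Mdm2 is the ubiquitin ligase that limits p53, and is itself a p53 target. It read 7.68, 7.76 and 7.65 on Ugcg-deficient 427, 429 and 431, against 7.96, 7.82 and 7.71 on wildtype 426, 428 and 430. The means were 7.69 ± 0.06 on Ugcg-deficient and 7.83 ± 0.13 on wildtype arrays (SD, n = 3 each), a difference of -0.13 (SE 0.08, 95% interval -0.32 to 0.06). Wildtype 430 lay among the Ugcg-deficient arrays, so the groups overlapped.

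Among the genes that act on the cell cycle, Cdkn1a encodes the inhibitor that blocks cyclin-dependent kinases. It read 8.29, 8.24 and 8.58 on Ugcg-deficient 427, 429 and 431, against 8.90, 9.23 and 8.75 on wildtype 426, 428 and 430. The means were 8.37 ± 0.18 on Ugcg-deficient and 8.96 ± 0.24 on wildtype arrays (SD, n = 3 each), a difference of -0.59 (SE 0.13, 95% interval -0.89 to -0.29) or a level 0.664 times that of wildtype. The groups did not overlap, and 0.174 log2 units separated the highest Ugcg-deficient array, 431, from the lowest wildtype array, 430. Of all probe sets, 0.196% had a lower difference than Cdkn1a. The gene was chosen with this contrast known, so nothing is read from that rank. In bulk liver RNA, fewer cells that express a gene and less of its RNA per cell cannot be told apart.

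Gadd45a encodes a stress sensor that binds cell cycle and repair proteins. Its values were 6.57, 6.59 and 6.67 on Ugcg-deficient 427, 429 and 431, against 7.15, 6.86 and 6.70 on wildtype 426, 428 and 430. The groups were separated by 0.025 log2 units between Ugcg-deficient 431 and wildtype 430. The difference of -0.29 (SE 0.11, 95% interval -0.54 to -0.04) rested most on wildtype 426, and it was -0.17 without that array. Ccng1, cyclin G, works with a phosphatase that acts on Mdm2. It read 8.61, 8.50 and 8.56 on Ugcg-deficient 427, 429 and 431, against 8.76, 8.80 and 8.53 on wildtype 426, 428 and 430. Here wildtype 426 and 428 were above every Ugcg-deficient array while wildtype 430 was within their range, and the difference was -0.14 (SE 0.09, 95% interval -0.34 to 0.06).

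Sesn1 encodes sestrin 1, which restrains the growth kinase mTORC1 and lowers oxidative stress. Its values were 7.74, 7.59 and 7.70 on Ugcg-deficient 427, 429 and 431, against 7.96, 7.94 and 7.78 on wildtype 426, 428 and 430. All Ugcg-deficient values were below all wildtype values, by 0.039 log2 units at the nearest pair, and the difference was -0.22 (SE 0.08, 95% interval -0.40 to -0.04). Trp53inp1, a p53-induced nuclear protein that also takes part in autophagy, read 8.61, 8.56 and 8.59 on Ugcg-deficient 427, 429 and 431, against 8.68, 8.88 and 8.35 on wildtype 426, 428 and 430. Its wildtype values lay on both sides of the Ugcg-deficient ones. The Ugcg-deficient arrays were close together (SD 0.02) and the wildtype arrays far apart (SD 0.27), with a difference of -0.06 (SE 0.12, 95% interval -0.33 to 0.22).

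Of the genes that start apoptosis, Bbc3 encodes PUMA, a protein that neutralises the survival proteins of the BCL2 family. It read 7.16, 7.24 and 7.37 on Ugcg-deficient 427, 429 and 431, against 7.81, 7.48 and 7.54 on wildtype 426, 428 and 430. The means were 7.26 ± 0.10 on Ugcg-deficient and 7.61 ± 0.18 on wildtype arrays (SD, n = 3 each), a difference of -0.36 (SE 0.10, 95% interval -0.59 to -0.13). A gap of 0.116 log2 units lay between Ugcg-deficient 431 and wildtype 428. Pmaip1 encodes NOXA, a second such protein, and its values were 5.87, 6.06 and 5.71 on Ugcg-deficient 427, 429 and 431, against 5.93, 5.81 and 5.79 on wildtype 426, 428 and 430. The Ugcg-deficient arrays held both its highest and its lowest value, and the difference was 0.03 (SE 0.10, 95% interval -0.19 to 0.26).

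Bax, the protein that opens the outer mitochondrial membrane, read 8.16, 8.08 and 8.07 on Ugcg-deficient 427, 429 and 431, against 8.16, 8.37 and 8.04 on wildtype 426, 428 and 430. Its difference of -0.09 (SE 0.09, 95% interval -0.30 to 0.12) rested on wildtype 428, and it was 0.001 without that array. Phlda3, a pleckstrin-homology protein that keeps the survival kinase AKT from the membrane, read 6.85, 6.94 and 6.93 on Ugcg-deficient 427, 429 and 431, against 7.08, 6.93 and 6.95 on wildtype 426, 428 and 430. One wildtype array, 426, stood above the other 5, and the difference was -0.08 (SE 0.07, 95% interval -0.24 to 0.09).

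**Figure D1:**
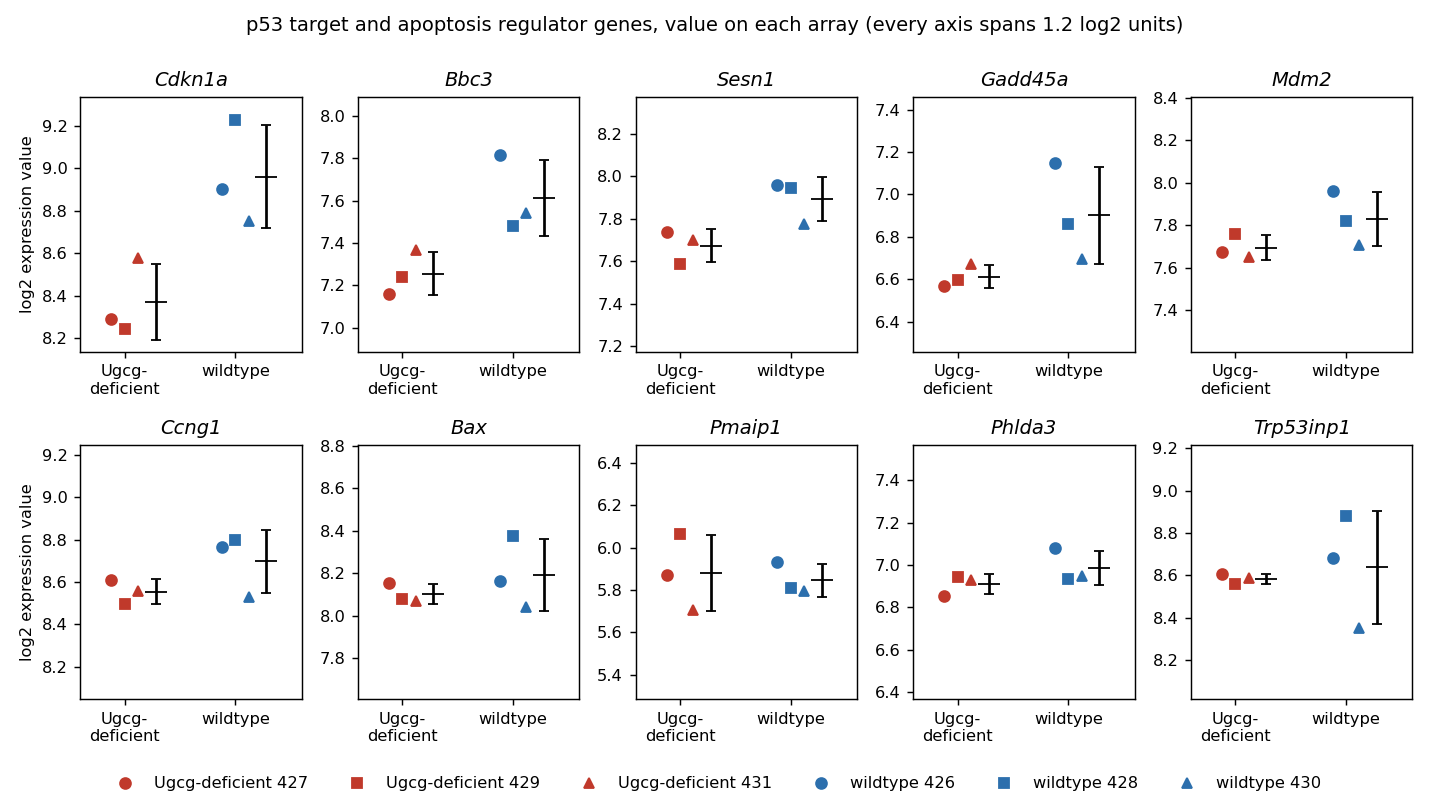
Log2 expression value of each of the 10 genes on each array (points; marker shape gives the array) with the mean and SD of each genotype (bar and whiskers, n = 3). For Cdkn1a, Bbc3, Sesn1 and Gadd45a all Ugcg-deficient points lie below all wildtype points; for the other genes the groups overlap.

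The wildtype arrays also differed among themselves in these genes. How often wildtype 430 was low over all probe sets was not counted, so its counts are not read as particular to the 10 genes. Wildtype 430 was the lowest wildtype array for 8 of the 10 genes, the exceptions being Bbc3 and Phlda3, where wildtype 428 was lowest. Measured from the mean of all 3 wildtype arrays, wildtype 430 was below 0 for all 10 genes, with a median deviation of -0.14. The medians of Ugcg-deficient 427, 429 and 431 on this scale were -0.14, -0.16 and -0.16, and those of wildtype 426 and 428 were 0.08 and 0.02. The highest wildtype value was in wildtype 426 for 6 genes and in wildtype 428 for 4. The SD of the Ugcg-deficient arrays was the smaller for 9 of the 10 genes, all but Pmaip1, as it was for 46.8% of all probe sets.

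**Figure D2:**
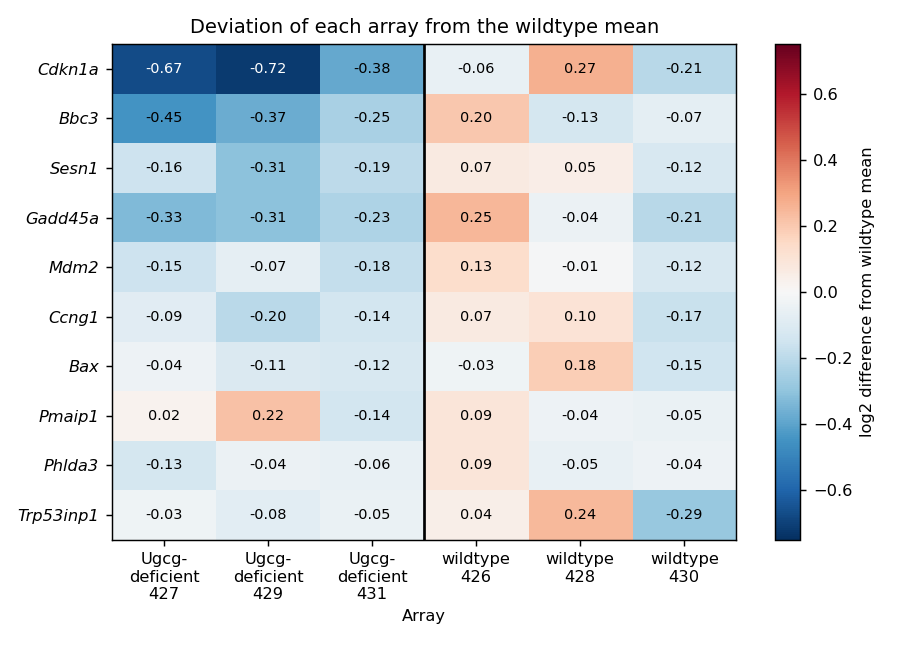
Each cell gives the log2 difference of an array (columns, Ugcg-deficient left of the line and wildtype right) from the mean of the 3 wildtype arrays for a gene (rows). Wildtype 430 is below 0 in every row, and Ugcg-deficient 431 is too.

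Wildtype 430 stood apart in genes of another tissue. All 12 measured genes of the exocrine pancreas list had their highest value there, and their mean was 6.52 to 6.70 on the Ugcg-deficient arrays and 6.62, 6.61 and 9.34 on wildtype 426, 428 and 430. The trypsinogen gene Prss2, for example, read 6.51 to 6.56 on the Ugcg-deficient arrays, against 6.51, 6.56 and 9.52 on wildtype 426, 428 and 430. Without wildtype 430, the median difference of the 10 p53 genes was -0.21 in place of -0.14. Whether the pancreatic RNA bears on the p53 genes was not tested.

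Other single arrays stood out in other markers. The muscle actin gene Acta1 read 8.48 on Ugcg-deficient 427 and 6.28 to 6.63 elsewhere. The bile duct keratin gene Krt19 read 7.60 on Ugcg-deficient 429 and 6.33 to 6.46 elsewhere. The neutrophil gene S100a8 read 7.76 on Ugcg-deficient 431 and 6.35 to 6.76 elsewhere. S100a9 was also highest on Ugcg-deficient 431. The other measured neutrophil genes were not: Ngp, Camp, Ltf and Elane were highest on Ugcg-deficient 429 and Mpo on wildtype 430. The fat cell genes Adipoq and Cfd read 6.92 and 7.70 on Ugcg-deficient 431, against 5.81 to 6.10 and 6.17 to 6.60 elsewhere. Of the same list, Cidec, Car3 and Myh4 were highest on a wildtype array. The mean over the 9 adipose and muscle genes was 7.10 to 7.47 on Ugcg-deficient and 7.11 to 7.14 on wildtype arrays. For 8 cholangiocyte genes it was 6.73 to 7.12 on Ugcg-deficient and 6.66 to 6.77 on wildtype arrays, and for 7 neutrophil genes 6.43 to 6.79 on Ugcg-deficient and 6.43 to 6.49 on wildtype arrays. For Kupffer cells and macrophages they were 8.24 to 8.87 on Ugcg-deficient and 8.59 to 8.78 on wildtype arrays, with 11 of 12 genes lower on Ugcg-deficient arrays and the lowest mean on Ugcg-deficient 431. The part of these cells in the p53 genes was not tested. All 11 measured hepatocyte markers were above the 90th percentile of probe sets of mean level. Over all 16331 probe sets the array medians lay between 6.79 and 6.81.

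Leaving out each array in turn showed which differences rest on a single array. Cdkn1a ran from -0.70 to -0.46, Bbc3 from -0.42 to -0.26, Sesn1 from -0.28 to -0.18 and Gadd45a from -0.39 to -0.17. The groups of these genes did not overlap, so no left-out array could turn their signs and only the sizes could vary. The signs of Mdm2 (-0.20 without wildtype 430 to -0.07 without wildtype 426), Ccng1 (-0.23 without wildtype 430 to -0.09 without wildtype 428) and Phlda3 (-0.10 without wildtype 428 to -0.03 without wildtype 426) held in all 6 cases. The sign turned for Bax (0.001) and Trp53inp1 (0.07) without wildtype 428, and for Pmaip1 (-0.06) without Ugcg-deficient 429. Trp53inp1 was the most dependent on single arrays, with -0.20 without wildtype 430. The median over the 10 genes ran from -0.21 without wildtype 430 to -0.11 without wildtype 426, and it was -0.23 without both wildtype 430 and Ugcg-deficient 427.

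**Figure D3:**
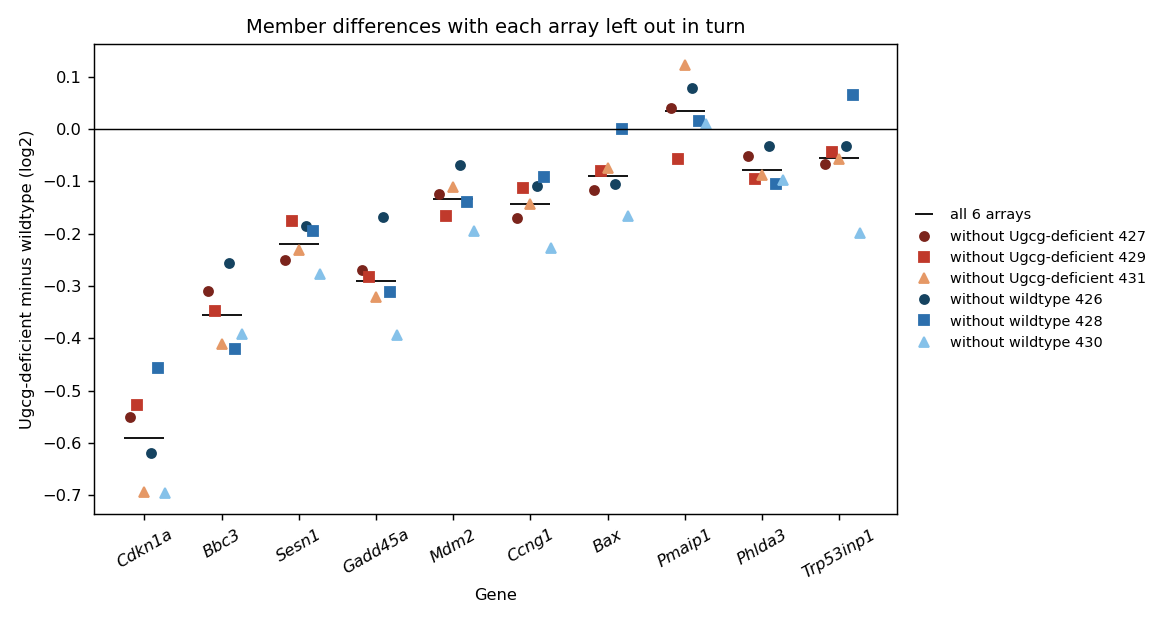
Difference of each gene, Ugcg-deficient minus wildtype on the log2 scale, with all 6 arrays (black bar) and with each array left out in turn (symbols). Cdkn1a, Bbc3, Sesn1 and Gadd45a, whose groups do not overlap, can only stay below 0. Bax, Pmaip1 and Trp53inp1 cross 0.

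The paralogs of the 10 genes, which share a family with them but are mostly under other controls, showed where a difference was shared within a family. None of the 13 passed limma's adjusted p under 0.05, which 0.0245% of all probe sets passed. At an unadjusted p under 0.05 there were 2 of the 13, against 4.99% of all probe sets. Phlda1, a relative of Phlda3 that growth factors and stress induce, read 10.26, 10.67 and 9.02 on Ugcg-deficient 427, 429 and 431, against 11.52, 11.45 and 11.18 on wildtype 426, 428 and 430. The groups were 0.508 log2 units apart at the nearest pair, and the difference of -1.40 (SE 0.35, 95% interval -2.19 to -0.61, limma adjusted p = 0.772) was the lowest of all 16331 probe sets. It was -0.92 without Ugcg-deficient 431, and its limma adjusted p ran from 0.352 to 1 over the alternatives. Phlda3 itself differed by -0.08.

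Ccng2, the relative of Ccng1 that FOXO factors induce in resting cells, read 8.65, 8.56 and 8.20 on Ugcg-deficient 427, 429 and 431, against 8.98, 8.95 and 8.73 on wildtype 426, 428 and 430. These groups did not overlap either, and the difference was -0.41 (SE 0.12, 95% interval -0.70 to -0.13, limma adjusted p = 0.951). Gadd45g varied widely, with 7.45, 9.05 and 8.40 on Ugcg-deficient 427, 429 and 431, against 9.17, 9.28 and 8.40 on wildtype 426, 428 and 430. Its difference was -0.65 (SE 0.37) with all arrays and -0.22 without Ugcg-deficient 427.

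The other paralogs had smaller differences. Sesn2, a sestrin that ATF4 also induces, was on the other side of 0 from Sesn1, with 6.66, 6.68 and 6.57 on Ugcg-deficient 427, 429 and 431, against 6.43, 6.54 and 6.49 on wildtype 426, 428 and 430. Its values did not overlap between the groups (0.15, SE 0.07). The difference was 0.06 for Sesn3 and 0.10 for Gadd45b, and that of Gadd45b was 0.03 without wildtype 426 and 0.20 without wildtype 428. For the other inhibitors of the Cdkn1a family it was 0.01 for Cdkn1b and -0.05 for Cdkn1c, and both signs turned with the arrays used. The pore-forming relatives of Bax differed by -0.02 (Bak1) and -0.21 (Bok), and Bok by -0.03 without wildtype 428. Mdm4, the partner of Mdm2, differed by 0.01, Phlda2 by 0.12 and Trp53inp2 by -0.14. Phlda2 differed by 0.02 without Ugcg-deficient 427 and by 0.20 without Ugcg-deficient 429, and Trp53inp2 by -0.07 without wildtype 428.

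**Figure D4:**
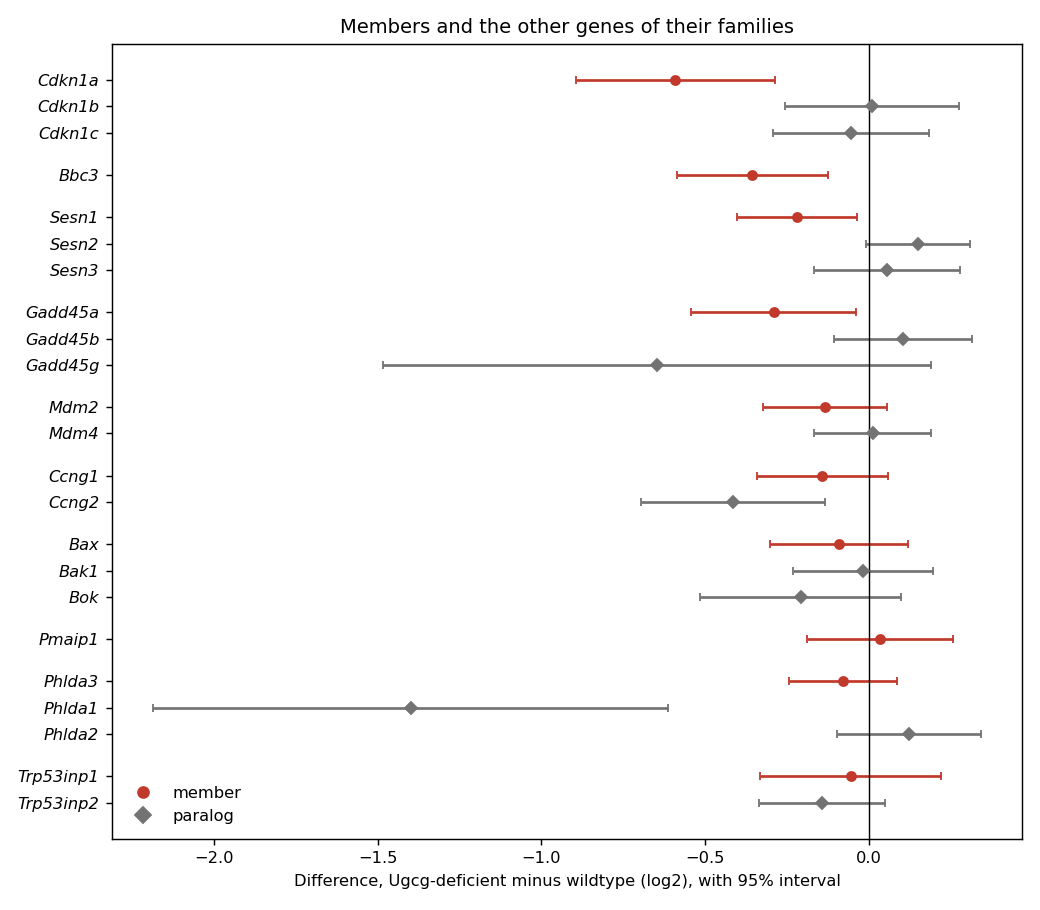
Difference, Ugcg-deficient minus wildtype on the log2 scale, with its 95% interval from the limma fit for each of the 10 genes (red circles) and the 13 paralogs (grey diamonds), grouped by family. Phlda1 lies farthest from 0, at -1.40.

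The gene for p53 itself had values that overlapped between the genotypes. Trp53 read 6.88, 6.93 and 6.76 on Ugcg-deficient 427, 429 and 431, against 7.01, 6.89 and 6.80 on wildtype 426, 428 and 430. The difference was -0.04 (SE 0.08, 95% interval -0.23 to 0.14, limma adjusted p = 0.994), and it was 0.009 without wildtype 426. Of 24 measured genes for p53 and its regulators 16 had a positive and 8 a negative difference (median 0.03). None passed, adjusted or unadjusted, where 4.99% of all probe sets had an unadjusted p under 0.05. Ppm1d, a phosphatase that p53 induces and that turns p53 off, read 6.73, 6.71 and 6.68 on Ugcg-deficient 427, 429 and 431, against 6.84, 6.88 and 6.81 on wildtype 426, 428 and 430. These groups did not overlap (-0.14, SE 0.07, limma adjusted p = 0.982). The deacetylase gene Sirt1 (-0.25), the DNA damage kinase gene Prkdc (-0.16) and the p53 relative Trp73 (0.14) were the other 3 genes among the 4 with the smallest p-values of this list. Without Ugcg-deficient 429 the difference was -0.14 for Sirt1 and -0.09 for Prkdc, and without wildtype 430 it was 0.06 for Trp73.

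Other p53 targets were divided in direction. Of 35 measured, 17 had a positive and 18 a negative difference, with a median of -0.007. None passed limma's adjusted p under 0.05, and 4 had an unadjusted p under 0.05, against 4.99% of all probe sets. The groups did not overlap for 3 of the 35 on the negative side and 6 on the positive side. The shares of all probe sets were 4.47% and 5.1%. Ddit4, an mTORC1 inhibitor that glucocorticoids and stress also induce, read 8.08, 8.20 and 8.12 on Ugcg-deficient 427, 429 and 431, against 7.65, 7.91 and 7.70 on wildtype 426, 428 and 430. Its groups did not overlap and the difference was 0.38 (SE 0.09, limma adjusted p = 0.67). The cell cycle arrest gene Rprm, with low values of 5.98 to 6.29, differed by 0.23 (SE 0.07, limma adjusted p = 0.951), also without overlap.

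On the negative side, the stress kinase gene Plk3 read 8.06, 7.80 and 7.91 on Ugcg-deficient 427, 429 and 431, against 8.14, 8.25 and 8.66 on wildtype 426, 428 and 430. The groups did not overlap, and the difference of -0.43 (SE 0.13, limma adjusted p = 0.951) was -0.27 without wildtype 430. Lpin1, a phosphatidate phosphatase of fat metabolism that fasting also induces, read 10.85, 9.15 and 8.97 on Ugcg-deficient 427, 429 and 431, against 10.47, 10.83 and 11.46 on wildtype 426, 428 and 430. Ugcg-deficient 427 lay among the wildtype arrays while the other 2 Ugcg-deficient arrays were far below them. Its difference was -1.26 with all arrays (SE 0.45, limma adjusted p = 0.951), -1.86 without Ugcg-deficient 427 and -0.92 without Ugcg-deficient 431.

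Other genes of apoptosis, from the BCL2 family and from the caspases and other death proteins, had list medians close to that of all probe sets. The BCL2 family had 8 positive and 8 negative differences among 16 measured genes (median 0.01), and the caspases and other death proteins 9 positive and 15 negative among 24 (median -0.03). No gene of either list passed limma's adjusted p. An unadjusted p under 0.05 was found for 1 of the BCL2 family and 0 of the death proteins, against 4.99% of all probe sets. In the BCL2 family the smallest p-values were those of Bad, a sensor of survival signals (0.19), Bok (-0.21), the survival gene Bcl2 (0.09) and the mitophagy receptor gene Bnip3l (0.08, and 0.03 without wildtype 430). Among the death proteins they were those of Casp2, a caspase activated through p53 targets whose groups did not overlap (-0.17), the adaptor gene Tradd (0.16), the death receptor gene Fas (-0.13) and the inhibitor gene Birc5 (0.14). Tradd differed by 0.08 without wildtype 426, and without Ugcg-deficient 431 the difference was -0.09 for Fas and 0.08 for Birc5.

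Cyclins, cyclin-dependent kinases and E2F targets, on which Cdkn1a acts, had 19 positive and 11 negative differences among 30 measured genes (median 0.05). None passed limma's adjusted p and 2 had an unadjusted p under 0.05, against 4.99% of all probe sets. Ccnd1, the cyclin that carries cells from rest into the cycle, read 8.60, 8.63 and 8.15 on Ugcg-deficient 427, 429 and 431, against 7.84, 7.72 and 8.04 on wildtype 426, 428 and 430. Its groups did not overlap, and its difference of 0.60 (SE 0.14, 95% interval 0.29 to 0.91, limma adjusted p = 0.67) was 0.51 to 0.75 with 1 array left out. The retinoblastoma gene Rb1 read 7.53, 7.39 and 7.45 on Ugcg-deficient 427, 429 and 431, against 7.68, 7.66 and 7.63 on wildtype 426, 428 and 430, which is a difference of -0.20 (SE 0.07, limma adjusted p = 0.951) with no overlap. The kinase inhibitors Cdkn2c (0.19) and Cdkn2b (0.16) also did not overlap between the groups, by 0.037 and 0.005 log2 units at the nearest pair. Cdkn2c differed by 0.10 without Ugcg-deficient 427.

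Transcription factors that act on Cdkn1a outside p53 had 9 positive and 13 negative differences among 22 measured genes (median -0.03). None passed limma's adjusted p. At an unadjusted p under 0.05, which 4.99% of all probe sets had, there was 1 gene. This was Myc, which represses Cdkn1a and drives growth. It read 6.76, 7.49 and 6.70 on Ugcg-deficient 427, 429 and 431, against 7.77, 7.54 and 7.15 on wildtype 426, 428 and 430. Ugcg-deficient 429 lay within the wildtype range, and the difference was -0.50 (SE 0.22, limma adjusted p = 0.982). It was -0.76 without Ugcg-deficient 429. Klf4 (0.13, groups not overlapping), the hepatocyte factor Cebpa (-0.18) and Foxo4 (-0.14) followed. Without Ugcg-deficient 431 Cebpa differed by -0.28, and without Ugcg-deficient 429 Foxo4 differed by -0.08. Over the 158 genes of these lists, each counted once, 82 differences were positive and 76 negative, with a median of 0.01. An unadjusted p under 0.05 was found for 10 of them, against 4.99% of all probe sets.

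**Figure D5:**
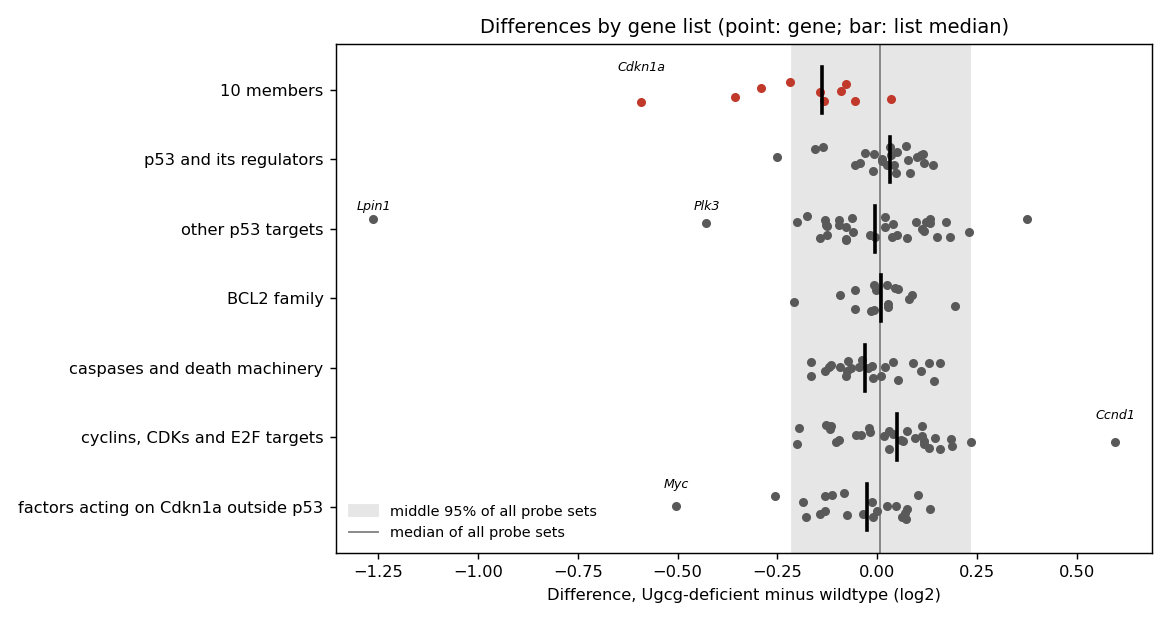
Difference of each gene (points), Ugcg-deficient minus wildtype on the log2 scale, with the median of each list (black bar), the median of all probe sets (grey line) and the range that holds the middle 95% of them (grey band, -0.21 to 0.23). Genes beyond 0.4 to either side are named; the median of the 10 genes is -0.14, and those of the other lists lie between -0.03 and 0.05.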

How the data were processed

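Per the labels' protocols, biotinylated cRNA was made from the liver RNA of 6 mouse samples for Affymetrix arrays. The deposited values run from 5.38 to 14.69 and were taken as log2 expression, with 1 probe set per Entrez gene. How the authors corrected background, normalized and summarised the probes, and on which array, is not given in the sources used here. The values were used as deposited, without 64 control probe sets. The platform annotation gave a symbol for 15644 of 16331 probe sets, and 15617 of these matched RefSeq (GRCm38.p6). Detection calls were not used. Precision is limited by the number of arrays, and at the median of all probe sets a 95% interval extended 0.192 above and below the difference.

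Groups came from the sample titles. The labels do not say that each sample was a separate animal. The p-values therefore reflect only how far these samples spread, and part of that spread may be technical. The genotypes were compared in limma (3.58.1, under R 4.3.3, lmFit and eBayes, two-sided, with 4 residual degrees of freedom and a prior of 4.85, Benjamini-Hochberg over all 16331 probe sets, threshold 0.05). Intervals and SE come from this fit. No exact permutation test was run, since its smallest p with 3 and 3 arrays is 0.1.

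The 10 genes and all lists were chosen with earlier results of these data known. Named were Ugcg, the 10 genes, their paralogs, Trp53, and of each other list the genes past the threshold or, with none, the 4 with the smallest p; marker genes were named where 1 array stood apart, and genes whose groups did not overlap are marked as such. Several genes belong to 2 lists. Alternatives were quantile normalization, median centring, a filter at the 40th percentile of the mean, array quality weights, a robust fit with an intensity trend, and leaving out arrays. The limma step was tested on simulated data. Plots were made in Python 3.11.15 (matplotlib 3.10.9).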

Additional observations from a re-analysis of the deposited data

How the results depend on the processing

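The median difference of the 10 p53 and apoptosis genes was -0.15 to -0.14 under quantile normalization, median centring and the filter on low probe sets. It was -0.16 with array quality weights. The intensity trend changes only the variances, so the median could not move there. The median ran from -0.21 to -0.11 with 1 array left out and was -0.23 without both wildtype 430 and Ugcg-deficient 427. It was below 0 under all 12 alternatives, but the genes were chosen with this contrast known in the same arrays, so nothing is read from that. The filter removed Pmaip1, and of the other named genes Trp73, Rprm, Bcl2, Birc5, Cdkn1b, Bak1, Phlda2, Cdkn2b and Klf4. The number of the 10 genes lower on Ugcg-deficient arrays ran from 7 without wildtype 428 to 10 without Ugcg-deficient 429. Over all probe sets, 4 passed with all arrays, 8 with array quality weights and 8 without both wildtype 430 and Ugcg-deficient 427. With 1 array left out the number ran from 0 to 4. It was 0 without wildtype 426, wildtype 428, Ugcg-deficient 427, 429 or 431, where 584 to 1022 had an unadjusted p under 0.05. Each fit with 1 array left out has fewer samples and less power, including that without wildtype 430, where 4 passed. Why the numbers differ was not tested.

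Of the other lists, 1 gene passed in 1 setting, among other p53 targets: Lpin1 without both wildtype 430 and Ugcg-deficient 427 (-1.59, limma adjusted p = 0.0141, range 0.0141 to 1 over the alternatives). The sign of Ugcg turned, with differences from -0.154 to 0.0675 with 1 array left out. Signs also turned with 1 array left out for Trp53 (-0.0929 to 0.00863), Mdm4 (-0.0485 to 0.0623), Cdkn1b (-0.114 to 0.102), Cdkn1c (-0.133 to 0.0267), Sesn3 (-0.0267 to 0.130) and Bak1 (-0.0880 to 0.0667). Without both wildtype 430 and Ugcg-deficient 427 they turned for Bnip3l (-0.0200), Cdkn1b (-0.157) and Bak1 (0.0166), and for Cdkn1b also with array quality weights (-0.0279). The cause was not tested. No paired analysis was run because the labels state no pairing, and the array numbers do not show whether there was one. No signal-over-background calls were used, so low values such as those of Pmaip1, Rprm, Klf4 and Cdkn2b cannot be told from background here. Gadd45a on the Ugcg-deficient arrays (6.57 to 6.67) and Sesn2 on all arrays (6.43 to 6.68) also lay below the array medians of 6.79 to 6.81.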
